A study of Danio rerio with 3 samples.

Results

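Nodal ligands act through activin receptors of type I and type II, which phosphorylate Smad2 and Smad3. These Smads join Smad4, enter the nucleus and are brought to DNA by partner factors, of which FoxH1 is the best known in early vertebrate embryos. Ski and Tgif proteins repress transcription together with the same Smads, and in zebrafish the mRNAs of several of these signal transducers are laid down in the egg.

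The 9 genes described here are foxh1, the target of the morpholino, and the machinery around it: smad2, smad3a, smad3b, smad4a, the receptor genes acvr1ba (type I, also called taram-a) and acvr2ba (type II), and the corepressor genes skia and tgif1. They were chosen by name: an array spot (an oligo, a printed long oligonucleotide) belongs to a gene when its symbol, title or RefSeq entry in the files names that gene. The rule found 21 of 33723 oligos, covering 8 of the 9 genes. No oligo carries the name tgif1. Of the 21 oligos, 20 could be measured on all 3 arrays, among 26210 such oligos and 1077 named genes in the whole series. A further 49 oligos have TARAMA in the name of the cDNA library they were cloned from; the word names a library there and not the gene, so they were not taken as acvr1ba.

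Each of the 3 two-colour arrays compared whole zebrafish embryos of the FoxH1 morpholino group with embryos of a control morpholino group, both at 40% epiboly and in pools of 50. A morpholino is an antisense oligomer that blocks translation or splicing of its target, so the target's mRNA need not fall. Neither the strain nor the targeted sequence is given in the sources used here. On arrays 1 and 2 the morphant sample was labelled with Cy3 and the control sample with Cy5, and array 3 was the dye swap, with the labels exchanged. The design text calls the 3 hybridizations independent, and nothing else records this, so the p-values describe the spread between these 3 hybridizations. The main test does not separate the dye orders, so that spread includes the difference between them as well as between pools. With arrays 1 and 2 of the same dye order, a plain mean over the 3 arrays also keeps part of that difference. In whole embryos, fewer cells that express a gene and less of its RNA per cell cannot be told apart.

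Ratios are given as log2 of morphant over control after correction for intensity, so that 1 is a doubling and 0 is no difference. The spot tables have a red and a green column, and green was read as the morphant on every array. For array 3 this reading was adopted from the data, and the labels do not state it. Local background was higher in red than in green at 5.36% of oligo spots on array 1 and 4.87% on array 2, but at 94.2% on array 3. Ratios of the random negative-control spots had a Pearson r of 0.93 for arrays 1 and 2, and of -0.73 for the mean of both against array 3 (132 spots on the same slides, a description). Over all 26210 tested oligos the ratios correlated at 0.82 between arrays 1 and 2, at -0.35 between arrays 1 and 3 and at -0.46 between arrays 2 and 3. Median oligo intensities in the morphant column were 190.7, 146.6 and 383.7 on arrays 1, 2 and 3, and 467.1, 337.9 and 161.6 in the control column. Every count of genes with 1 sign on all 3 arrays rests on this reading. With array 3 turned, 189 of 1077 genes (17.5%) lay below 0 on all 3 arrays and 424 (39.4%) above it. In that reading 244 of the 1077 genes had a limma adjusted p under 0.05. Values with array 3 turned are given beside the results they change.

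All 20 measured oligos were above 2 SDs of the local background in both columns on all 3 arrays, as were 23885 of all 26210 tested oligos. To be tested, an oligo already had to be above this mark in either column on at least 2 arrays. A stricter mark is the median of the random negative controls, which lay at 296.7, 168.4 and 526.1 in the morphant column and at 704.3, 522.4 and 197.1 in the control column. On all 3 arrays and in both columns 11 of the 20 oligos were brighter than these medians, and 5 did not exceed both medians at once on any array: the Compugen oligos of smad3a and smad4a, the MWG oligos of acvr1ba and skia, and the only oligo of smad3b. The share of all oligos above these medians was not computed. Measurable signal was also given by 14 of 16 listed blastoderm genes and by 7 of 10 listed genes of later differentiated cells. These are not detection rates, because a listed gene without a named oligo counts as not measured.

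The knockdown target foxh1 gave nearly equal signal in morphants and controls. Its bright Operon oligo had intensities of 5356, 3203 and 11653 in morphants on arrays 1, 2 and 3, against 21165, 12215 and 3944 in controls. The higher value stood in the Cy5 channel each time, as it did for the median oligo, and after correction the log2 ratios were -0.22, -0.11 and 0.18. The Compugen oligo, designed from the entry that calls the gene FAST1, was at 0.19, 0.25 and -0.45.

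Both oligos had means over the 3 arrays near 0 (Operon -0.049, Compugen -0.0035), and each had the opposite sign on array 3 from arrays 1 and 2. The 2 oligos also had opposite signs from each other on every array. The third foxh1 oligo, from the MWG set, was scored as unusable on arrays 1 and 3 and was not tested. As a gene, foxh1 was at -0.02, 0.07 and -0.13, with a mean of -0.03 ± 0.10 (SD, n = 3 arrays; limma adjusted p = 0.961). The 95% interval of this mean, in fold terms, ran from 0.714 to 1.35. The small SD belongs to the average of oligos that disagreed, with SDs of 0.39 (Compugen) and 0.21 (Operon) each on its own. With array 3 turned the mean was 0.063, and it was 0.027 without replicate 3.

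**Figure D1:**
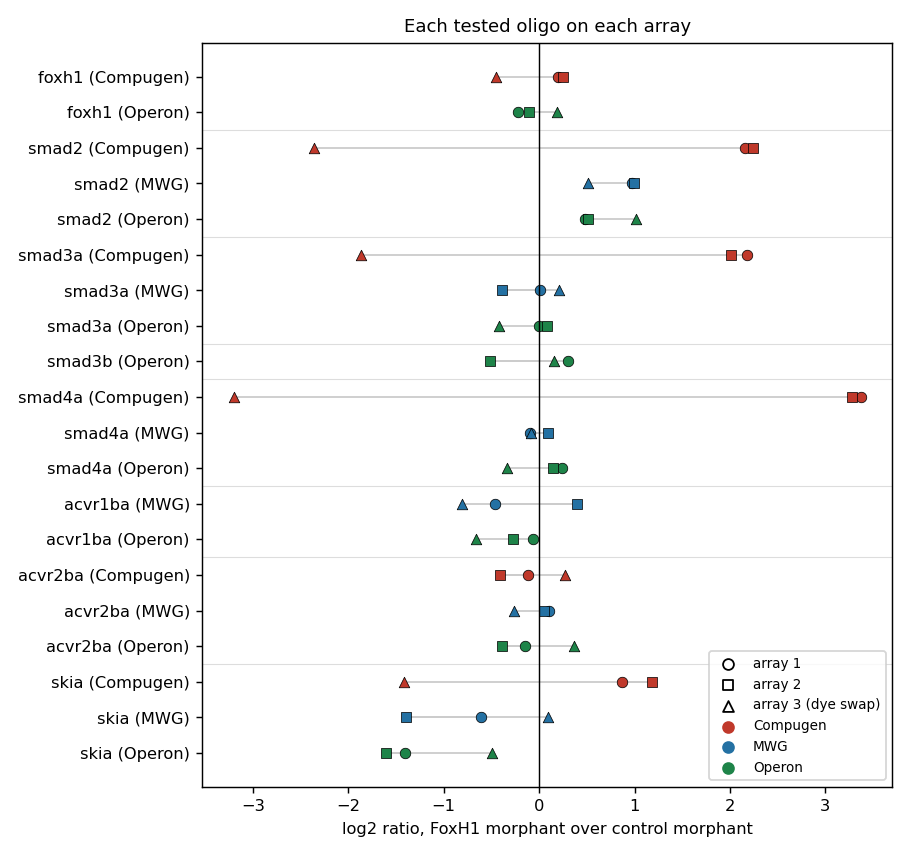
Log2 ratio of morphant over control (horizontal axis) for each of the 20 tested oligos (rows, grouped by gene) on array 1 (circles), array 2 (squares) and array 3, the dye swap (triangles); colour gives the oligo set. The Compugen oligos of smad2, smad3a, smad4a and skia cross from one side of 0 to the other on array 3, while the MWG and Operon oligos of smad2 lie above 0 on all 3 arrays.

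The receptor-activated Smad gene smad2, which carries the Nodal signal into the nucleus, had ratios above 0 on all 3 arrays at 2 of its 3 oligos, though it did not pass. Its Operon oligo had intensities of 901.1, 540.9 and 1442 in morphants on arrays 1, 2 and 3, against 1956, 1141 and 266.9 in controls, and log2 ratios of 0.48, 0.51 and 1.01. Its MWG oligo had intensities of 610.5, 400.4 and 659.9 in morphants, against 876.8, 553 and 175.9 in controls, and log2 ratios of 0.98, 0.999 and 0.51.

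These 2 oligos lay above 0 on every array, with means of 0.67 ± 0.30 and 0.83 ± 0.27 (SD, n = 3 arrays; limma adjusted p = 0.403 and 0.352 over all oligos, so neither passed). The Compugen smad2 oligo behaved otherwise, at 2.15, 2.24 and -2.36. Averaged over the 3 oligos, smad2 was at 1.20, 1.25 and -0.28, with a mean of 0.73 ± 0.87 (limma adjusted p = 0.702). Without Compugen oligos, a setting chosen after the data were seen, the gene was at 0.73, 0.76 and 0.76, with a mean of 0.75 and a limma 95% interval from 0.37 to 1.13 (adjusted p = 0.193 over 1008 genes). That close agreement belongs to the average alone, since the MWG oligo was lowest and the Operon oligo highest on array 3. Without replicate 3, where 494 of 1077 genes passed, the mean over all 3 oligos was 1.23 and passed (limma adjusted p = 0.0163). With array 3 turned the smad2 mean was 0.91 and did not pass (limma adjusted p = 0.0796). In that reading the MWG and Operon oligos would both lie below 0 on array 3. Only the Compugen oligo would then lie above 0 on all 3 arrays. A fit with a term for the dye of the morphant RNA, which weights the 2 dye orders equally, gave 0.47 for all 3 oligos, with an interval from 0.22 to 0.73 (adjusted p = 0.0941). In that fit array 3 is the only array of its dye order and is fitted exactly. The interval therefore rests on the difference between arrays 1 and 2 and on limma's variance shared over all genes.

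The other receptor-activated Smads, smad3a and smad3b, showed no shift of one sign. The Operon oligo of smad3a was at -0.0044, 0.080 and -0.42 and the MWG oligo, titled only Smad3, at 0.0074, -0.39 and 0.21. Both straddled 0. The Compugen oligo, also titled Smad3 and drawn from the same sequence entry as the MWG oligo, was at 2.18, 2.01 and -1.87.

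With all 3 oligos smad3a averaged 0.20 ± 0.78 (SD, n = 3 arrays; limma adjusted p = 0.879), and -0.09 ± 0.08 without the Compugen oligo. With array 3 turned 244 of 1077 genes passed, and 494 did without replicate 3. Among them was smad3a with all oligos, at 0.66 and 0.65 (limma adjusted p = 0.0347 and 0.0296). Its paralogue smad3b had 1 oligo, with dim spots of 162.9, 94.6 and 275.3 in morphants, against 330.8, 309.4 and 103.2 in controls. The smad3b ratios were 0.30, -0.51 and 0.16 (mean -0.02 ± 0.43; limma adjusted p = 0.976), a spread that covers both signs and left an interval from -0.73 to 0.69.

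The common partner Smad gene smad4a, shared by the Nodal and BMP branches, had a Compugen oligo far from its 2 other oligos on every array. Its Operon oligo was at 0.24, 0.14 and -0.34, from intensities of 1649, 1003 and 3580 in morphants, against 4626, 3021 and 1666 in controls. Its MWG oligo was at -0.09, 0.10 and -0.08. The Compugen oligo was at 3.37, 3.28 and -3.20, from intensities of 495.4, 476.3 and 146.9 in morphants, against 120.4, 121.9 and 521.7 in controls.

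On every array that Compugen spot was brighter in the Cy3 channel, whichever RNA carried Cy3, while the other smad4a oligos were brighter in the Cy5 channel. All 3 oligos come from 1 sequence entry. With them smad4a averaged 0.38 ± 1.37 (limma adjusted p = 0.879), and without the Compugen oligo -0.0050 ± 0.18, with a 95% interval from -0.45 to 0.44. With array 3 turned, the Compugen oligo would stand above 3 on each array. The gene smad4a would then pass the test (mean 1.18, limma adjusted p = 0.0106), as it did without replicate 3 (1.17, adjusted p = 0.0164). In those settings 244 and 494 of 1077 genes passed. The 2 other smad4a oligos had values between -0.34 and 0.24 as measured.

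**Figure D2:**
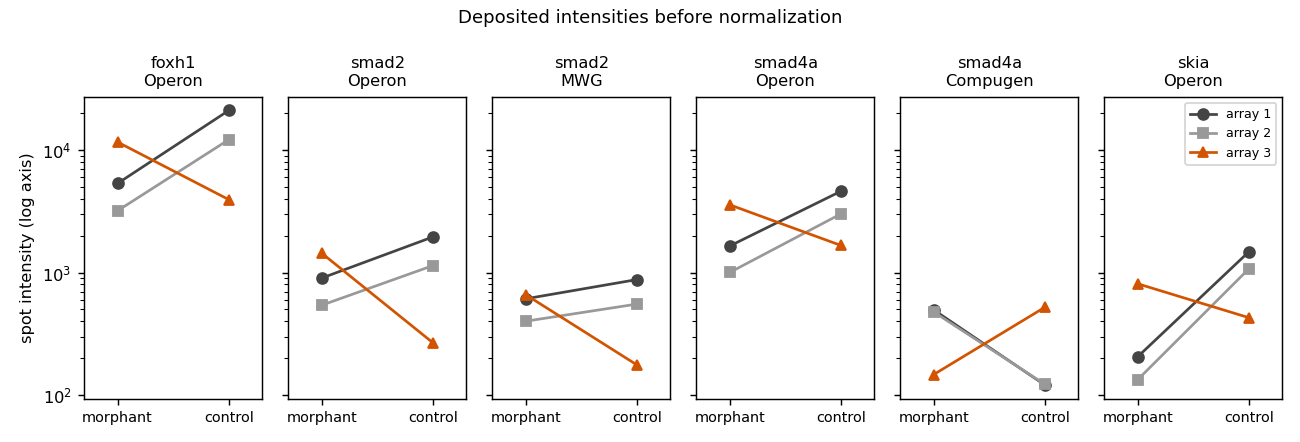
Deposited spot intensity on a log axis in the morphant column (left) and the control column (right) of each panel, for 6 oligos on array 1 (dark grey circles), array 2 (light grey squares) and array 3 (orange triangles). Lines for arrays 1 and 2 run opposite to array 3 in every panel, as the dyes do; the smad4a Compugen oligo runs the other way from the smad4a Operon oligo on each array.

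The receptor genes differed from each other in pattern, and neither passed. For acvr2ba, the type II receptor that binds the ligand, the MWG, Operon and Compugen oligos ranged from -0.41 to 0.36, and the gene was at -0.05, -0.25 and 0.12 (mean -0.06 ± 0.19, limma adjusted p = 0.920). For acvr1ba, the type I receptor kinase, the Operon oligo was at -0.06, -0.27 and -0.66 and the MWG oligo at -0.46, 0.40 and -0.81. The Operon oligo was thus below 0 on all 3 arrays and the dimmer MWG oligo on 2 of them.

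The acvr1ba mean was -0.31 ± 0.40 (SD, n = 3 arrays; limma adjusted p = 0.821), from -0.26, 0.06 and -0.73 on arrays 1, 2 and 3. Leaving out 1 array gave means from -0.50 without replicate 2 to -0.10 without replicate 3. The dye term moved it to -0.42 (adjusted p = 0.154). Adding an oligo that shares only a UniGene cluster with the gene moved it to -0.10, and turning array 3 gave 0.18.

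The corepressor gene skia, a zebrafish homologue of the Ski oncogene, was the only one of the 8 genes with 1 sign on all 3 arrays as they were read here. With array 3 turned its mean was -0.13 (limma adjusted p = 0.797) and it had both signs, whereas acvr2ba lay below 0 and smad2, smad3a and smad4a above 0 throughout. Its values as read here were -0.38, -0.61 and -0.61, with a mean of -0.53 ± 0.13 (SD, n = 3 arrays) and a limma 95% interval from -1.003 to -0.06 (limma adjusted p = 0.452). The small SD again belongs to the average of oligos that disagreed. The Operon oligo was at -1.40, -1.60 and -0.50, from intensities of 205.4, 133.5 and 810 in morphants, against 1484, 1078 and 427.5 in controls. The dim MWG oligo was at -0.61, -1.40 and 0.09, and the Compugen oligo at 0.87, 1.19 and -1.41.

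Only the Operon oligo of skia was below 0 throughout (mean -1.17 ± 0.59, limma adjusted p = 0.367 over all oligos). That oligo exceeded the random control medians in both columns on only 1 of the 3 arrays. With no background subtraction skia averaged -0.14 (limma adjusted p = 0.884) and no longer lay below 0 on all 3 arrays. Without the Compugen oligo the gene averaged -0.90 ± 0.65 (adjusted p = 0.389), and by the brightest oligo alone, which is the Compugen one, it averaged 0.21. The dye term gave -0.55 (adjusted p = 0.0966).

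For tgif1, which encodes a homeodomain corepressor, no value is given. One MWG oligo is titled as similar to mouse TG interacting factor, and which zebrafish gene it represents is not stated. It was at -0.37, -0.21 and 0.26 (mean -0.10 ± 0.33, limma adjusted p = 0.850).

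**Figure D3:**
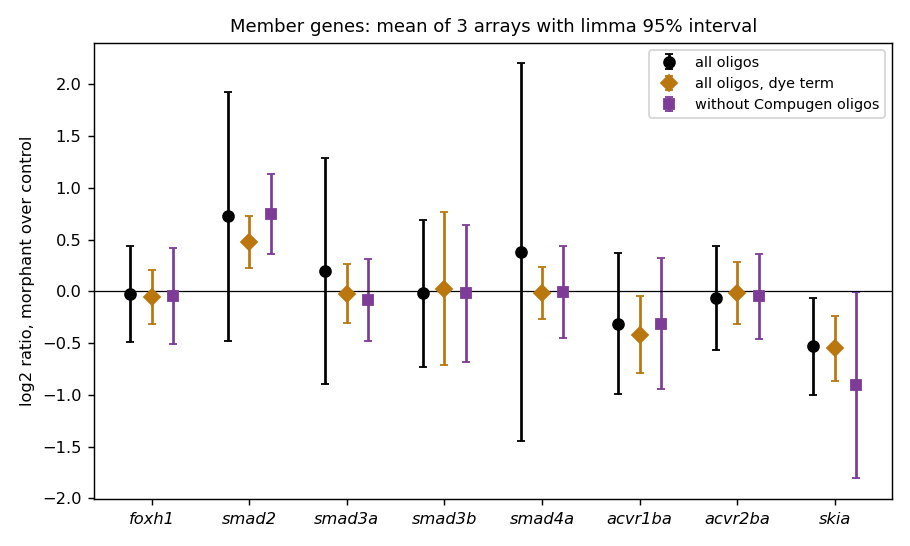
Mean log2 ratio over the 3 arrays (points) with the limma 95% interval (bars) for each measured gene, from all oligos (black circles), from all oligos with a dye term (orange diamonds) and without Compugen oligos (purple squares). Intervals of smad2, smad3a and smad4a narrow in the last 2 fits; smad2 then lies above 0 and skia below 0 in both, and none passed after adjustment over all genes.

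After Benjamini-Hochberg adjustment no member passed the limma test, and neither did any other feature: 0 of 26210 oligos (0%) and 0 of 1077 genes (0%) had an adjusted p under 0.05, with lowest values of 0.282 and 0.294. At an unadjusted p under 0.05, limma gave 2972 oligos (11.3%) and 104 genes (9.66%). Among the members these were 3 of 20 oligos and 1 of 8 genes, skia. The oligos were those of smad2 from the MWG and Operon sets and the skia Operon oligo. One member gene of 8 lay below 0 on all 3 arrays, where 17.5% of all genes did, and 0 of 8 lay above 0 throughout, where 11.6% did. Of the oligos, 2 of 20 lay below 0 on all 3 arrays (17.6% of all oligos) and 2 of 20 above it (17% of all oligos). These shares are close to the background. The median of the 8 gene means was -0.02, beside 0.03 over all genes tested.

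With the dye term the adjusted p-values also stayed above 0.05, in 0 of 1077 genes (0%) and 0 of 26210 oligos (0%), and the lowest were 0.0758 and 0.106. In that fit 308 genes (28.6%) and 7057 oligos (26.9%) had an unadjusted p under 0.05. The genes smad2, skia and acvr1ba were among them, which is 3 of 8 members. The p-values of that fit hold no spread for the swapped dye order, which is array 3 alone.

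Among these genes the ratios that differed most between arrays 1 and 2 and array 3, the dye swap, were those of Compugen oligos. The mean of arrays 1 and 2 minus array 3, divided by 2, is called the dye-following part of a log2 ratio here. The mean of the 2 dye orders is the dye-balanced part. Array 3 alone has the swapped dye order. Effects of the dyes, of that array and of how its columns were read cannot be told apart in the dye-following part. For the Compugen oligos the dye-following part was 3.26 in smad4a, 2.28 in smad2, 1.98 in smad3a and 1.22 in skia, and 0.34 and -0.27 in foxh1 and acvr2ba. Their dye-balanced means were small by comparison, between -0.19 and 0.11. Among the 8 Operon and 6 MWG oligos of the same genes, the dye-following part lay between -0.55 and 0.39.

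Over all oligos a dye-following part above 1 in size was found for 18.8% of Compugen oligos and 13.9% of the others, against 4 of 6 and 0 of 14 here. Those shares cover oligos with and without a gene name, and a share for named Compugen oligos alone was not computed. The 4 of 6 member oligos, all of them named, therefore have no like share beside them. Whether they differ from other named Compugen oligos was not tested. Large values were not particular to these genes: the dye-following part of Compugen oligos was 2.76 in smad5, 2.68 in lft1 and 2.48 in bmpr1aa, but 0.27 in tdgf1. The dye-following part of the smad4a Compugen oligo was larger in size than that of 99.2% of all tested oligos. All 6 Compugen oligos had the opposite sign on array 3, as did 49.6% of all oligos, and 5 of the other 14 did.

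**Figure D4:**
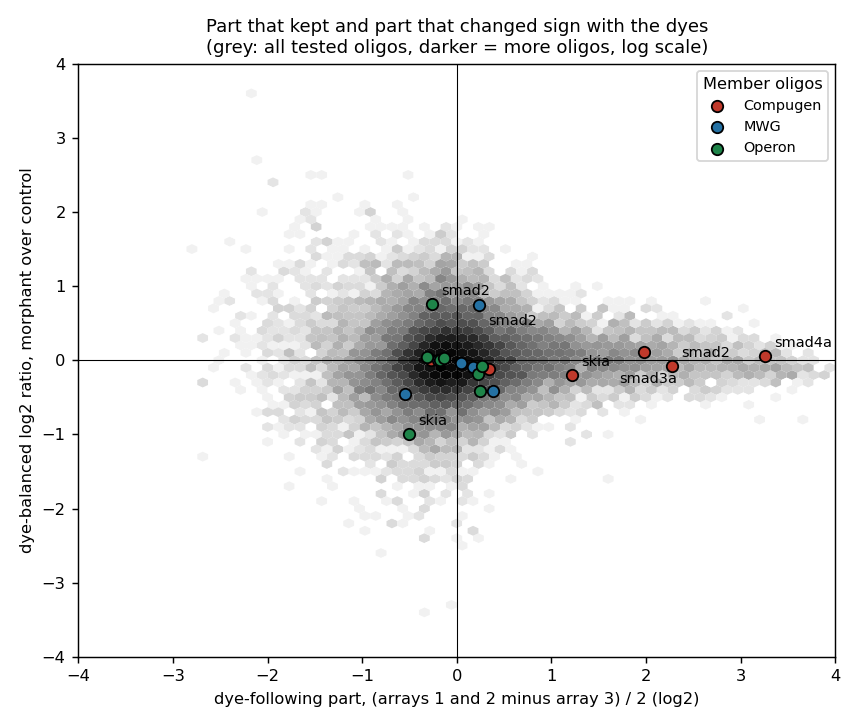
Dye-balanced log2 ratio of morphant over control (vertical axis) against the dye-following part (horizontal axis, log2), with all 26210 tested oligos as grey density (log scale) and the 20 member oligos coloured by set. The red Compugen points of smad4a, smad2, smad3a and skia lie far to the right at a balanced ratio near 0, and the MWG and Operon points of smad2 lie near 0.75 on the vertical axis.

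The remaining genes of the pathway were taken from a list of 30 others, of which 11 were measured and 0 passed. The list median was 0.09 (0.0072 for dye-balanced means). On all 3 arrays 1 gene lay below and 3 above 0 (17.5% and 11.6% of all genes). With array 3 turned these counts were 1 and 5 (17.5% and 39.4% of all genes). In that reading 2 of the 11 passed, as did 244 of all 1077 genes. Among the ligands, gdf3 (also called vg1, the maternal partner of Nodal) was at 0.67, 0.70 and 0.49 (mean 0.62 ± 0.11; 0.29 with array 3 turned), and ndr2 (cyclops) at 0.12, 0.07 and 0.06. The corepressor gene skib, paralogue of skia, was at 0.55, 0.17 and 0.03, and lay below 0 with median centring (-0.44) and in the authors' deposited values (-0.45). The homeobox gene mixl1 (bonnie and clyde), a Nodal target that also acts with Smads, was at -0.51, -0.47 and -0.42 (mean -0.47 ± 0.04; -0.18 with array 3 turned). The other 7 measured genes, among them ndr1, tdgf1, lft1, lft2 and smad7, had both signs.

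Smads and receptors of the BMP branch share Smad4 with the Nodal branch. Of the 14 listed genes 5 were measured, 0 passed, and the median was 0.15. The median of their dye-balanced means was -0.027, beside -0.059 over all genes tested. The type I BMP receptor gene bmpr1ba lay above 0 on all 3 arrays, at 1.09, 0.66 and 1.04 (mean 0.93 ± 0.24). Its mean was 0.24 with array 3 turned (limma adjusted p = 0.770) and it had both signs. The 4 other genes, smad1, smad5, bmpr1aa and acvr1l, were above 0 on arrays 1 and 2 and below 0 on array 3. With array 3 turned they would all be above 0 throughout, as were 39.4% of all genes. In that reading 2 of the 5 passed, as did 244 of all 1077 genes.

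Other members of the forkhead family, to which FoxH1 belongs, had a median of -0.19 (-0.22 for dye-balanced means). Of the 30 listed, 14 were measured, 5 lay below 0 and 1 above it on all 3 arrays (17.5% and 11.6% of all genes), and 0 passed. Turning array 3 left 1 below 0 and 4 above it (17.5% and 39.4% of all genes), and the median was -0.0053. In that reading 4 passed, as did 244 of all 1077 genes. The mesodermal gene foxc1a averaged -1.18 ± 0.56, the endodermal genes foxa3 and foxa -0.97 ± 0.15 and -0.81 ± 0.52, and foxc1b and foxg1a -0.35 ± 0.09 and -0.23 ± 0.04 (SD, n = 3 arrays). The foxc1a mean depended on the processing, at -2.13 with median centring, -2.14 in the authors' deposited values and -0.21 with no background subtraction. The means of foxc1a, foxa3 and foxc1b with array 3 turned were -0.78, -0.44 and -0.05. The neural gene foxb1b averaged 0.47 ± 0.06 and reversed to -0.09 without Compugen oligos.

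The genes that Nodal signals switch on at the margin of the embryo included means further below 0 than that of any transducer, as array 3 was read here. Of 30 listed targets 25 were measured, and 0 passed, with a list median of -0.26 (-0.39 for dye-balanced means). On all 3 arrays 12 lay below 0 and 1 above it (17.5% and 11.6% of all genes). The T-box genes tbx6, tbxta and tbx16 averaged -2.78 ± 0.41, -2.71 ± 0.82 and -1.19 ± 0.07, and the endoderm regulators sox32 and gata5 -1.60 ± 0.23 and -1.37 ± 0.39. These means depended on the processing, at -1.11, -1.42, -1.07, -0.74 and -0.56 in that order with no background subtraction. The tbx6 mean rests on 1 oligo, and the tbxta mean was -1.66 by its brightest oligo. The largest mean in size among the transducers, that of smad2, was 0.73 (0.55 with no background subtraction). With the dye orders weighted equally it was that of skia, at -0.55, and smad2 was at 0.47. The contrast in size did not hold with array 3 turned: tbx6, tbxta, tbx16, sox32 and gata5 averaged -0.79, -1.10, -0.45, -0.66 and -0.71, while smad4a averaged 1.18. In that reading 2 targets lay below 0 and 8 above it throughout (17.5% and 39.4% of all genes). The difference between the lists was not tested.

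**Figure D5:**
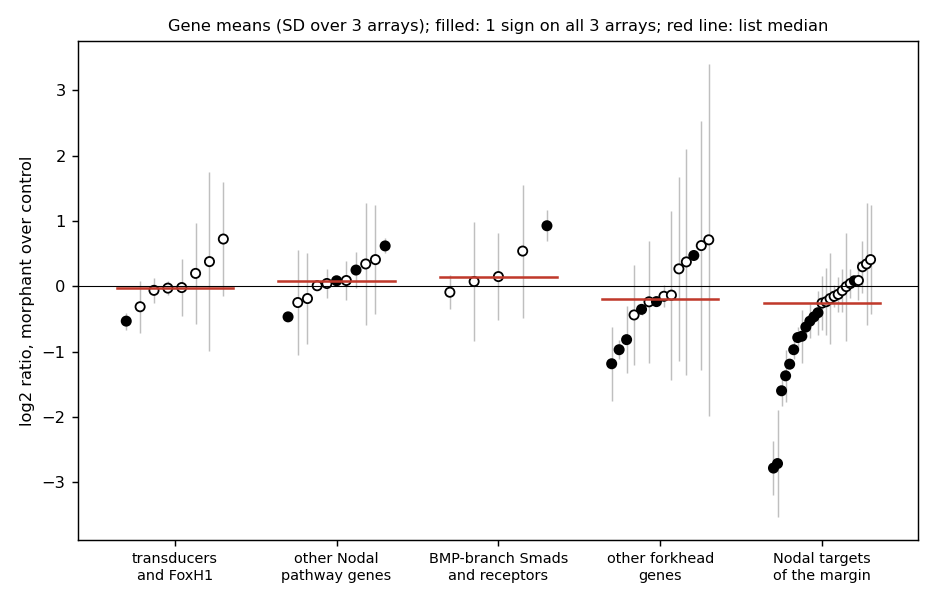
Mean log2 ratio of morphant over control for every measured gene of 5 lists (points, sorted within each list) with the SD over 3 arrays (grey bars); filled points have 1 sign on all 3 arrays and red lines mark list medians. Array 3 is as read here; the 8 transducers centre on 0 with 1 filled point, and the margin targets reach -2.78.

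Some markers of other cells and of maternal RNA also had ratios of 1 sign on all 3 arrays, and none of them passed. Of all genes 17.5% lay below 0 and 11.6% above it throughout (17.5% and 39.4% with array 3 turned). Of 11 maternal transcripts 6 were measured and 5 lay above 0 on all 3 arrays (list median 1.02), against 1 with array 3 turned (list median 0.52). Their summed normalized signal ran from 14943 to 28048 in morphants, against 5546 to 8571 in controls. Of 13 enveloping layer genes 6 were measured, 3 below and 1 above 0 on all 3 arrays (1 and 0 with array 3 turned), with sums of 11701 to 16430 in morphants, against 18402 to 27154 in controls. Of 3 measured yolk syncytial layer genes 2 lay below and 0 above 0 throughout, and of 3 germ cell genes 0 and 1. Of 14 blastoderm genes 8 lay below and 1 above, and of 7 genes of later differentiated cells 0 and 0. With array 3 turned the counts below and above 0 were 0 and 1, 0 and 2, 2 and 2, and 2 and 5 in that order. The lists share genes with each other and with those above, so their counts are not separate. Both yolk syncytial genes below 0, gata5 and sox32, are also margin targets, as are the blastoderm genes tbxta, tbx16, gsc and chrd. The germ cell gene above 0, dazl, is also among the maternal transcripts. No measured marker could be listed at 0, because spots with a value at 0 were left out beforehand. The part of these markers in the values of smad2 and skia was not tested.

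By pattern over the 3 arrays, the genes nearest to foxh1 were cd74b, en2a and tcf3a, at Euclidean distances of 0.053, 0.057 and 0.062 log2 units, where the median over the 1076 other genes was 0.997. The genes nearest to skia were vim, b3gnt7l and vent, at 0.11, 0.15 and 0.19, with a median of 1.34. With 3 arrays such nearness describes values and no more.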

How the data were processed

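The files hold 3 arrays, 1 table of spots each. The authors deposited a red and a green intensity per spot with local background already subtracted, the background intensity and its SD, a ratio, a constant per array and a quality score (per the file headers). The deposited log2 values were made by the authors from that ratio, with the sign turned and no correction for intensity, as found by setting them against the spot tables. The scanner is not given in the sources used here. According to the labels' protocols, total RNA was reverse transcribed with aminoallyl dUTP, whereas the design text speaks of amplified RNA.

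From the intensities, log2 of green over red was computed, corrected by loess (span 0.3) within each array, and repeat spots were averaged. Spots with a quality score of 0, or a value at 0, were left out. Symbols came from the RefSeq accession (reference table of assembly GRCz12tu), the symbol column, the title or a shared accession, for 2859 of 33723 oligos. Oligos of a gene were averaged. Tests used limma's lmFit and eBayes (version 3.58.1, R 4.3.3, Benjamini-Hochberg adjustment over all oligos or all genes, threshold 0.05), without a dye term. A dye term, other backgrounds, normalizations, filters, weights and names, and leaving out each array, were alternatives. The fits were also run on simulated data, whose outcome is not given here, and no result above rests on that run. Figures used Python 3.11.15 and matplotlib 3.10.9.

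Members, lists and settings were chosen with earlier results of these data known. Named are all members, up to 6 genes of 1 sign per list, and the 3 genes nearest to foxh1 and to skia.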

Additional observations from a re-analysis of the deposited data

How the results depend on the processing

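The counts of features past the threshold depended on array 3. They were 0 oligos and 0 genes by limma under every setting but 3: with array 3 turned (2496 oligos, 244 genes), with array quality weights (16138 and 582) and without replicate 3 (5924 and 494); leaving out 1 array gave from 0 to 5924 oligos and from 0 to 494 genes. By construction, the dye-following part of each ratio has 1 sign in the first and the last of these. Members below 0 on all arrays (1 gene) became 2 with median centring, print-tip loess or the deposited log2 values and 0 with no background subtraction, and ran from 1 to 3 when 1 array was left out. Members above 0 (none) became 3 with array 3 turned and 1 without Compugen oligos, and ran from 0 to 3 when 1 array was left out. Without replicate 3, where 494 of 1077 genes passed, smad2, smad3a and smad4a passed at 1.23, 0.65 and 1.17. With quality weights, where 582 of 1077 genes passed, these 3 passed too (1.20, 0.63 and 1.13), as did skia (-0.48). With array 3 turned, where 244 of 1077 genes passed, smad3a (0.66) and smad4a (1.18) did. Several means changed sign: foxh1 with array 3 turned (0.063), quality weights (0.020) and without replicate 3 (from -0.074 to 0.027 when 1 array was left out); smad3a with the dye term (-0.024), the brightest oligo (-0.061), without Compugen oligos (-0.088) and without replicate 1 (-0.064); smad4a with the dye term (-0.017), without Compugen oligos (-0.0050) and without replicate 1 (-0.017) or 2 (-0.016). The smad3b mean turned with the dye term (0.027), median centring (0.10), print-tip loess (0.082), normexp (0.00027), deposited values (0.095) and without replicate 2 (from -0.18 to 0.23 over the arrays left out). Also reversed were acvr1ba with array 3 turned (0.18), acvr2ba with print-tip loess (0.029) and without replicate 2 (from -0.15 to 0.036), skia with the brightest oligo (0.21), foxb1b with the brightest oligo (-0.092) or without Compugen oligos (-0.092), ndr2 without Compugen oligos (-0.096), and skib with median centring (-0.44) and deposited values (-0.45). Where no construction of the setting shows it, the cause was not tested. The smad2 mean kept its sign in all 17 alternatives, from 0.46 to 1.23. These are not separate checks, since some filters left it unchanged at 0.73. By the brightest oligo, the Compugen one, it was 0.68, while the dye-balanced mean of that oligo was -0.08. With array 3 turned, only that oligo of smad2 would lie above 0 on all 3 arrays. The test on the ratios already pairs the pools within each array. No further pairing was possible because the 3 ratios form 1 group, in which a further block leaves nothing to compare. Only 3 arrays limit the precision, and 5 member oligos did not exceed the random control medians in both columns at once on any array.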

Other observations

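The 49 ESTs cloned from the shield-stage library with TARAMA in its name had median ratios below 0 on each array as read here, and no test compared them with the rest. The group was noticed after its values had been seen, and the labels do not say how the library was made. Of these oligos 47 were tested: their median log2 ratios were -0.51, -0.50 and -0.14 on arrays 1, 2 and 3, beside 0.01, -0.02 and 0.0079 over all 26210 oligos. The median of their dye-balanced ratios was -0.30. On all 3 arrays 27 of the 47 lay below 0 and 1 above it, where 17.6% and 17% of all oligos did. With array 3 turned these counts were 13 and 2, where 24.7% and 24.8% of all oligos did. None passed limma's test (lowest adjusted p = 0.282). An unadjusted limma p under 0.05 was found for 10 of the 47, and for 11.3% of all oligos.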
